A study of Drosophila melanogaster with 6 samples.

Results

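Chitin deacetylases and chitin-organizing proteins were followed as 10 Drosophila melanogaster genes in whole embryos at about stage 14. They were chosen by name as serp, verm, Cda4, Cda5 and Cda9, which encode members of the chitin deacetylase family, Gasp, obst-A and obst-B, which encode secreted chitin-binding proteins of the obstructor family, and knk and rtv, which encode membrane proteins needed for ordered chitin. All 10 were found by symbol among the 15135 features of the deposited table of TPM, a measure that counts reads per unit of gene length and gives every library the same sum. The spo mutant embryos (3 libraries) were compared with wild-type embryos (3 libraries), all made from polyA RNA of the whole embryo. spo (spook) is the gene of a cytochrome P450 needed to make the steroid hormone ecdysone, and the study asked which genes act downstream of ecdysone. The sources used here do not give the spo allele, the background stock or the way mutant embryos were picked. Nothing in the labels says whether the 3 libraries of a genotype came from separate collections, and p-values therefore cover only the spread from library to library.

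Chitin is a polymer of N-acetylglucosamine that is made at the apical surface of epidermal and tracheal cells and built into the cuticle and into a transient fibre inside the growing tracheal tubes. Chitin deacetylases remove acetyl groups from the polymer, and serp and verm are known in the fly for limiting the length of the tracheal tubes from inside the lumen. Obstructor proteins bind chitin through peritrophin-type domains, and knk and rtv act at the cell membrane so that new chitin is laid down in order.

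Library totals, rebuilt from the TPM values and exon lengths, were 50170031 to 72564582 reads in spo mutant and 55497978 to 73656575 reads in wild-type libraries. The spo transcript was scarce, at 0.610, 0.470 and 0.306 TPM in spo mutant replicates 1, 2 and 3, against 0.944, 0.726 and 0.696 TPM in wild-type replicates 1, 2 and 3 (log2 difference -0.29, SE 0.09, limma adjusted p = 0.0434), and this call was lost in 5 of 6 fits without 1 library. The span of spo overlaps that of l(3)psg2, which averaged 64.1 TPM in spo mutant and 54.3 TPM in wild-type embryos. Shared exonic bases were not counted for this pair. Tissue markers were present in both genotypes. As background for the marker counts below, 33.9% of all 10019 tested features were higher in spo mutant embryos and 27.9% lower (limma adjusted p under 0.05). Calls in either direction came to 61.7%. The 9 trachea markers summed to 1067 to 1141 TPM in spo mutant and 1408 to 1421 TPM in wild-type libraries, with 1 higher, 5 lower and none at 0. Most of that gap lay in rib, and the other 8 summed to 735 to 742 TPM in spo mutant and 773 to 788 TPM in wild-type libraries. The 8 epidermis markers summed to 387 to 429 TPM in spo mutant and 614 to 619 TPM in wild-type libraries, with 1 higher, 6 lower and none at 0. That gap lay mostly in neo, tyn, mey, mwh and sha, at 43.3%, 60.2%, 54.9%, 61.0% and 15.1% of the wild-type level. The epidermal regulators grh, the 1 higher, and ovo stayed nearer to it, at 109% and 90.1%. The 8 maternal transcripts summed to 145 to 185 TPM in spo mutant and 7.82 to 8.42 TPM in wild-type libraries, with 7 higher, but 6 of the 8 passed the filter on low values through the spo mutant libraries alone. Of 10 tested markers of neurons, glia, muscle, blood cells, fat body, gut and salivary gland, 2 were higher and 5 lower. nSyb (neurons) fell to 2.96 ± 0.82 TPM in spo mutant, against 8.58 ± 0.27 TPM in wild-type embryos. elav, also of neurons, kept 76.5% of the wild-type level. The muscle markers went in opposite directions. Mhc fell to 9.93 ± 0.44 TPM in spo mutant, against 26.0 ± 0.69 TPM in wild-type embryos. Mef2 rose to 158 ± 1.68 TPM in spo mutant, against 145 ± 0.84 TPM in wild-type embryos (SD, n = 3 each). The other rise was that of moody (glia), at 121% of the wild-type level. In whole embryos, fewer cells of a type and less RNA per cell cannot be told apart. Spo mutant replicate 2 had the highest trachea, epidermis and maternal totals of its genotype. For the trachea markers this lay mostly in rib, at 399 TPM in spo mutant replicate 2 against 335 and 332 TPM in spo mutant replicates 1 and 3.

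Of the 10 genes, 9 had at least 1 TPM in at least 3 libraries and were tested, and Cda9 lay below that level. In spo mutant embryos 5 fell (serp, verm, Cda5, Gasp and obst-B), 1 rose (obst-A), and knk, rtv and Cda4 did not pass the threshold of 0.05 for the limma adjusted p. That is 6 of 9 called, where 61.7% of all 10019 tested features were called (33.9% higher and 27.9% lower), so the share of called genes is near the background. The libraries of the genotypes did not overlap for 7 of the 9, against 68.4% of all tested features. Of the falls, 3 (Gasp, obst-B and serp) reached at least 1 on the log2 scale, as did 2.62% of all tested features, and the rise of obst-A did too, as did 2.66%. The median difference of the 9 genes was -0.35, against 0.02 over all tested features, where the 10th and 90th percentiles were -0.41 and 0.46. All differences are spo mutant minus wild-type on the scale of log2(TPM + 1).

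**Figure D1:**
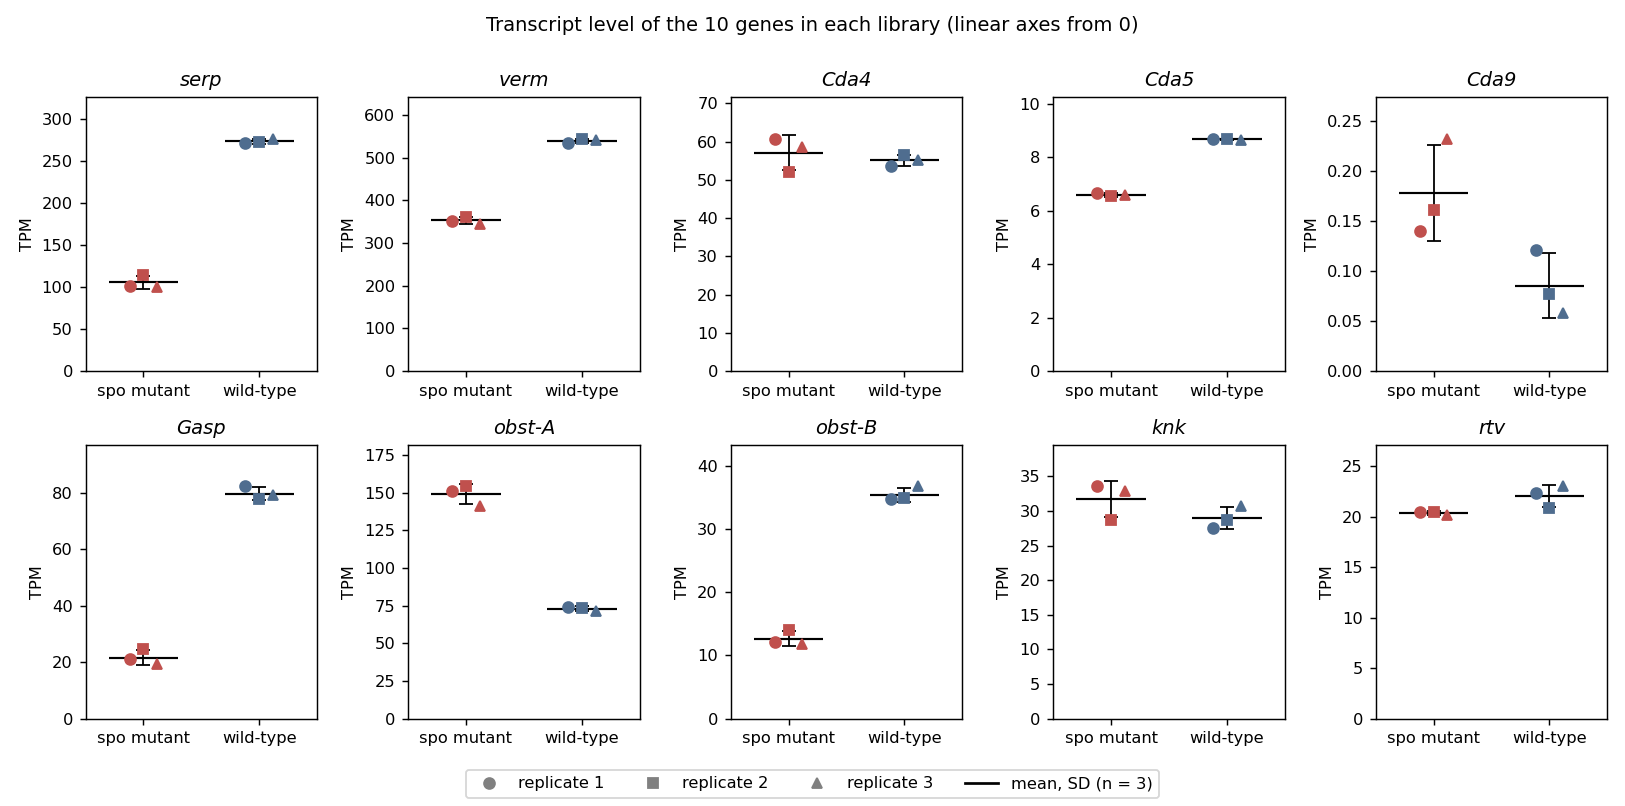
TPM of the 10 genes in each library, with a linear axis from 0 for each gene. Symbols are replicates 1 to 3, lines are means and bars are SDs (n = 3). The libraries of serp, verm, Cda5, Gasp, obst-A and obst-B form separate groups by genotype, those of knk and Cda4 overlap, and Cda9 stays below 0.25 TPM.

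serp (serpentine, also called Cda1) stood at 102, 115 and 101 TPM in spo mutant replicates 1, 2 and 3, against 271, 273 and 277 TPM in wild-type replicates 1, 2 and 3. All spo mutant libraries lay well below the lowest wild-type library, and replicate 2 was the highest of the mutants. Mean levels were 106 ± 7.76 TPM in spo mutant and 274 ± 2.71 TPM in wild-type embryos (SD, n = 3 each), so that 38.6% of the wild-type level was left. On the log2 scale serp differed by -1.37 (SE 0.05, limma adjusted p = 2.27e-06).

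verm (vermiform, also called Cda2), the other luminal deacetylase, was the most abundant of the 10 genes in both genotypes on the per-length TPM scale. Its levels were 352, 361 and 345 TPM in spo mutant replicates 1, 2 and 3, against 534, 543 and 541 TPM in wild-type replicates 1, 2 and 3. The groups did not overlap, and 65.4% of the wild-type level was left. Its difference of -0.61 (SE 0.02, limma adjusted p = 2.49e-06) was smaller than that of serp. The ratio of serp to verm was 0.289, 0.317 and 0.292 in spo mutant replicates 1, 2 and 3, against 0.508, 0.502 and 0.511 in wild-type replicates 1, 2 and 3. Each mutant library had less serp per verm than any wild-type library. The log2 ratio differed by -0.76 (two-sided exact permutation test, p = 0.10, the smallest that 3 libraries against 3 can give).

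serp and verm are neighbours on chromosome 3L, both on the minus strand. In the dm6 coordinates of Ensembl release 115, verm (FBgn0261341) spans 19690033 to 19695260 and serp (FBgn0260653) spans 19700977 to 19708015, with 5716 bases and no annotated protein-coding gene between them. The protein-coding gene on the far side of verm, Gbeta76C, averaged 0.0939 ± 0.0682 TPM in spo mutant and 0.106 ± 0.058 TPM in wild-type embryos (SD, n = 3 each). Trpml, on the far side of serp, averaged 0.00549 ± 0.00519 TPM in spo mutant and 0.00741 ± 0.00771 TPM in wild-type embryos. Of the 4 genes in a row, the deacetylase pair thus held nearly all of the summed TPM in both genotypes.

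The other family members had lower means than serp and verm in both genotypes on the per-length scale. Cda5 (FBgn0051973, 2L, 25402 to 65404, minus strand), a deacetylase gene with 8 annotated transcripts, stood at 6.68, 6.54 and 6.59 TPM in spo mutant replicates 1, 2 and 3, against 8.69, 8.68 and 8.65 TPM in wild-type replicates 1, 2 and 3. The groups did not overlap, and both had a narrow spread. It differed by -0.35 (SE 0.05, limma adjusted p = 4.78e-04), with 76.1% of the wild-type level left. Tested against a log2 change of 0.5, Cda5 was not called, while serp, verm, Gasp, obst-A and obst-B were, among 8.68% of all tested features.

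Cda4 (FBgn0052499, X, 22583634 to 22632710, minus strand) stood at 60.7, 52.0 and 58.5 TPM in spo mutant replicates 1, 2 and 3, against 53.6, 56.5 and 55.1 TPM in wild-type replicates 1, 2 and 3. Spo mutant replicate 2 lay below all wild-type libraries, and the other two mutant libraries lay above them. The log2 difference was 0.05, with a 95% interval of -0.08 to 0.18 (limma adjusted p = 0.488). Without spo mutant replicate 2 it was 0.11 (limma adjusted p = 0.0163), so that 1 library decides this call.

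Cda9 (FBgn0034197, 2R, 17128480 to 17130334, plus strand) was barely detected. It had 5, 7 and 12 reads in spo mutant replicates 1, 2 and 3, against 5, 3 and 3 reads in wild-type replicates 1, 2 and 3, or 0.141, 0.161 and 0.232 TPM in spo mutant against 0.122, 0.0770 and 0.0577 TPM in wild-type libraries. All spo mutant libraries were above all wild-type libraries, at a level where single reads decide the order. Summed per genotype, the 24 spo mutant and 11 wild-type reads gave a ratio of read rates of 2.21, with an exact 95% interval of 1.04 to 5.01 that covers counting error only. Fitted together with all 15135 features, the log2 difference was 0.12 (limma adjusted p = 0.0720).

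The 3 obstructor genes went in opposite directions. Gasp (obst-C), whose protein lines the tracheal lumen and binds chitin there, had the steepest fall of the 10 genes. It stood at 21.1, 24.5 and 19.2 TPM in spo mutant replicates 1, 2 and 3, against 82.2, 77.7 and 79.2 TPM in wild-type replicates 1, 2 and 3. The groups were far apart, with 27.1% of the wild-type level left, and again spo mutant replicate 2 was the highest mutant library. The log2 difference of -1.84 (SE 0.08, limma adjusted p = 4.26e-06) was the 71st lowest of the 10019 tested features. Gasp (FBgn0026077) spans 6088799 to 6100887 on the minus strand of 3R, with 2 annotated transcripts.

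obst-B (FBgn0027600, 2L, 10032690 to 10038954, plus strand) stood at 12.2, 14.1 and 11.8 TPM in spo mutant replicates 1, 2 and 3, against 34.8, 34.8 and 36.7 TPM in wild-type replicates 1, 2 and 3. The groups did not overlap, and 35.7% of the wild-type level was left. obst-B differed by -1.42 on the log2 scale (SE 0.07, limma adjusted p = 5.64e-06), the 116th lowest, next to serp at the 123rd.

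obst-A (FBgn0031097, X, 20239855 to 20243209, plus strand), whose protein is known as a chitin scaffold of the larval cuticle, rose. Its levels were 151, 154 and 141 TPM in spo mutant replicates 1, 2 and 3, against 74.3, 73.2 and 71.4 TPM in wild-type replicates 1, 2 and 3. Every mutant library lay above every wild-type library, and spo mutant embryos averaged 2.04-fold the wild-type level. Its difference of 1.02 (SE 0.04, limma adjusted p = 2.20e-06) was the 261st highest of all tested features. The ratio of obst-A to Gasp was 7.15, 6.29 and 7.36 in spo mutant replicates 1, 2 and 3, against 0.903, 0.943 and 0.902 in wild-type replicates 1, 2 and 3. Gasp was thus the more abundant of the pair in wild-type embryos and obst-A in spo mutant embryos, on the per-length scale. The log2 ratio differed by 2.92 (two-sided exact permutation test, p = 0.10, the smallest possible). For obst-A over obst-B the ratio averaged 11.8 ± 0.75 in spo mutant and 2.06 ± 0.10 in wild-type embryos (SD, n = 3 each), with no overlap between the genotypes.

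**Figure D2:**
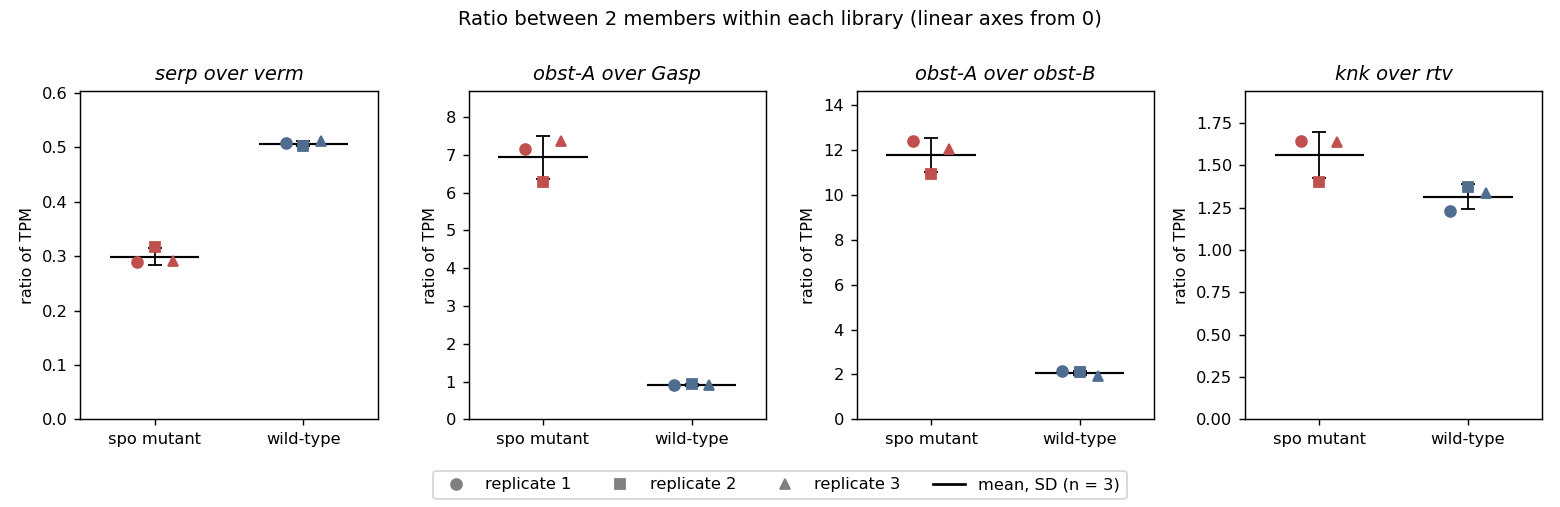
Ratio of TPM between 2 of the genes within each library, on linear axes from 0, with replicate symbols, means and SDs (n = 3). serp over verm is lower in all 3 spo mutant libraries, obst-A over Gasp and obst-A over obst-B are several times higher, and knk over rtv is higher with libraries that lie close to those of wild-type.

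The membrane proteins showed smaller differences. knk (knickkopf, FBgn0001321, 3R, 10122365 to 10125664, minus strand) encodes a surface protein that, in the flour beetle Tribolium, guards chitin against chitinases. It stood at 33.6, 28.7 and 33.0 TPM in spo mutant replicates 1, 2 and 3, against 27.5, 28.7 and 30.7 TPM in wild-type replicates 1, 2 and 3. Spo mutant replicate 2 fell inside the wild-type range, and the other two mutant libraries lay above it. The log2 difference was 0.12, with a 95% interval of -0.03 to 0.28 (limma adjusted p = 0.146), and without spo mutant replicate 2 it was 0.19 (limma adjusted p = 0.0113). The annotated antisense gene asRNA:CR46038 shares 1712 of the 2674 exonic bases of knk, and reads of these genes may not be told apart.

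rtv (retroactive, FBgn0261277, X, 11152484 to 11153990, minus strand) encodes a small membrane protein that acts in the same process and is needed for Knk trafficking in Tribolium. It stood at 20.4, 20.5 and 20.1 TPM in spo mutant replicates 1, 2 and 3, against 22.4, 20.9 and 23.0 TPM in wild-type replicates 1, 2 and 3. All mutant libraries lay below all wild-type libraries, but wild-type replicate 2 was close to the mutants. The log2 difference was -0.11, with a 95% interval of -0.21 to -0.01, and missed the threshold (limma adjusted p = 0.0561). With TPM divided by median-of-ratios factors it was -0.13 and passed (limma adjusted p = 0.0312). The ratio of knk to rtv averaged 1.56 ± 0.14 in spo mutant and 1.31 ± 0.07 in wild-type embryos (SD, n = 3 each, two-sided exact permutation test, p = 0.10). rtv and Lint-1, which lies on the opposite strand, share 109 exonic bases. Lint-1 had a log2 difference of 0.03 (limma adjusted p = 0.437).

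**Figure D3:**
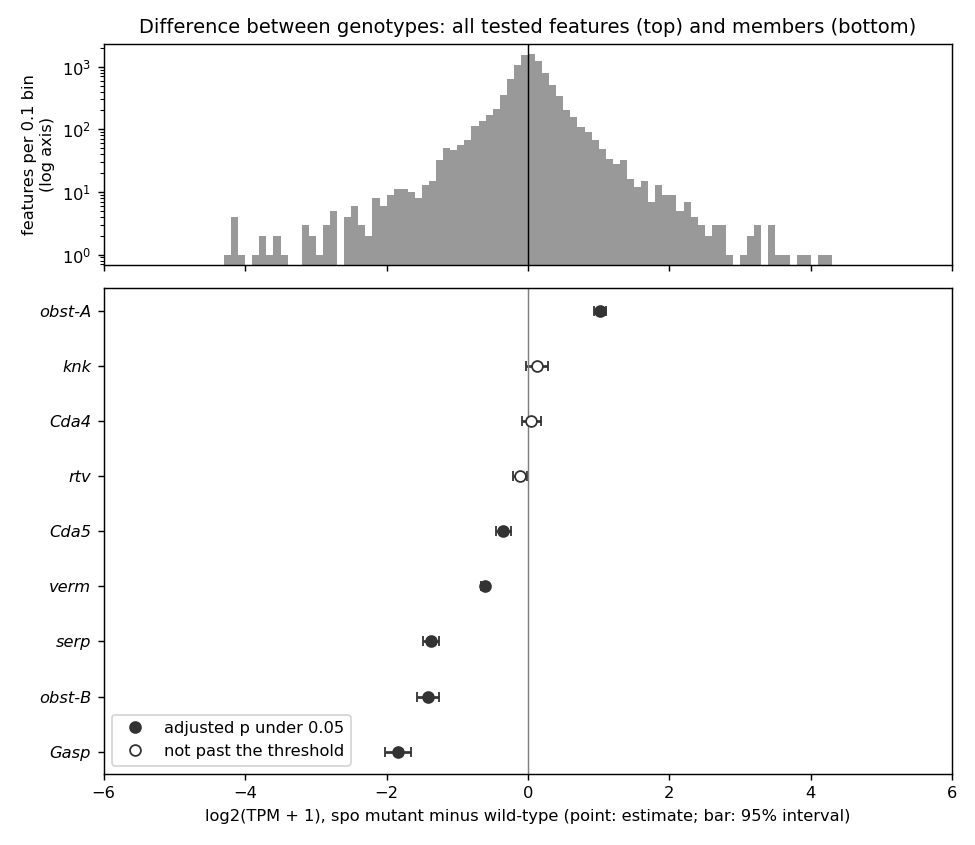
Upper panel, number of tested features per 0.1 of the log2 difference between spo mutant and wild-type embryos, on a log axis. Lower panel, the 9 tested genes with estimates and 95% intervals, filled where the limma adjusted p is under 0.05. obst-A lies at 1.02, knk, Cda4 and rtv lie near 0, and the 5 falls run from -0.35 for Cda5 to -1.84 for Gasp.

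The summed TPM of the 10 genes was lower in spo mutant embryos, mostly through verm and serp, and the mix differed. Their summed TPM was 760, 777 and 736 in spo mutant replicates 1, 2 and 3, against 1109, 1117 and 1122 in wild-type replicates 1, 2 and 3. Nearly all of that drop lay in verm, at 353 TPM in spo mutant and 539 TPM in wild-type embryos, and in serp, at 106 and 274 TPM. Among the other genes, the rise of obst-A ran against the falls of Gasp and obst-B. serp and verm together made up 60.5% ± 0.77 of the summed TPM in spo mutant and 72.8% ± 0.23 in wild-type embryos (SD, n = 3 each). obst-A made up 19.6% ± 0.37 of it in spo mutant and 6.54% ± 0.17 in wild-type embryos. In descending order of mean TPM, spo mutant embryos had verm, obst-A, serp, Cda4, knk, Gasp, rtv, obst-B, Cda5 and Cda9. Wild-type embryos had verm, serp, Gasp, obst-A, Cda4, obst-B, knk, rtv, Cda5 and Cda9. Neighbours in these orders had libraries that did not overlap, except Gasp and rtv in spo mutant embryos, at 21.6 ± 2.68 and 20.4 ± 0.18 TPM (SD, n = 3 each).

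The position of spo mutant replicate 2 differed between genes. For serp, verm, Gasp and obst-B it was the mutant library nearest to wild-type, with 41.9%, 67.0%, 30.7% and 39.7% of the wild-type mean. It was also the nearest for knk (99.1%) and, by narrow margins, for Cda4 (94.4%) and rtv (92.7%). For Cda4 it lay below the wild-type mean, while spo mutant replicates 1 and 3 lay above it, at 110% and 106%. For obst-A it was the farthest, at 211% of the wild-type mean against 207% and 194% in spo mutant replicates 1 and 3. Cda5 was likewise farthest in it, narrowly, at 75.4%. Without this library, 3 of the 9 genes were called higher (obst-A, knk and Cda4) and the same 5 lower, where 35.1% of all tested features were called higher and 29.5% lower. That left serp at 37.0%, Gasp at 25.3% and obst-B at 33.7% of the wild-type level. Trachea, epidermis and maternal marker sums were also the highest of the mutants in this library, as given above. For the trachea markers, mostly through rib, and the epidermis markers that was nearer to wild-type. For the maternal transcripts it was farther from wild-type. The part of these markers in the values of this library was not tested.

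**Figure D4:**
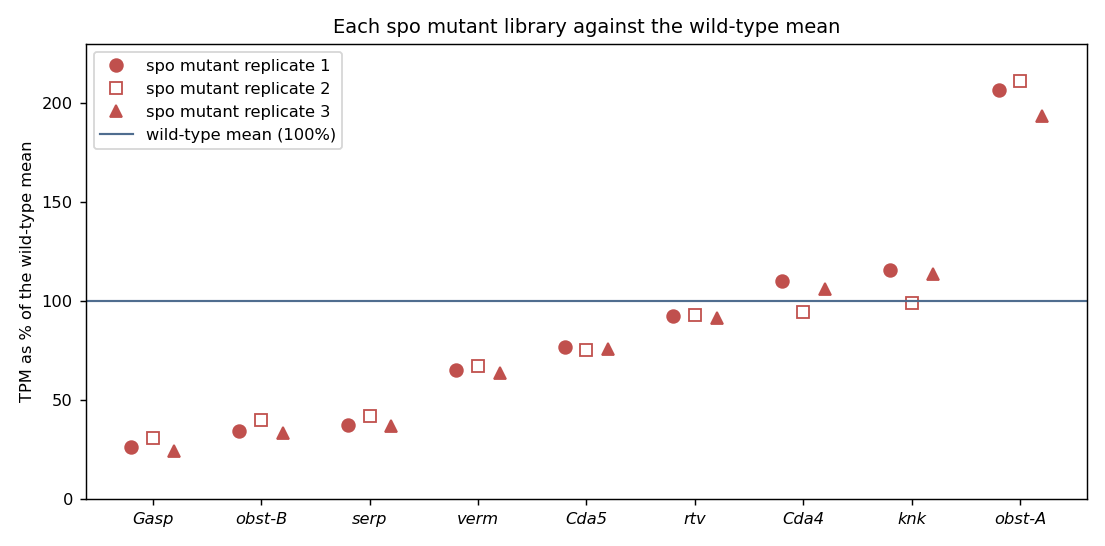
TPM of 9 genes in each spo mutant library as a percentage of the wild-type mean, shown as a line at 100%. Open squares mark replicate 2, which is the highest mutant library for Gasp, obst-B, serp and verm and the lowest for Cda4 and knk.

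A false discovery rate under 0.05 stood beside 6 of the 10 genes in the authors' deposited table, and beside 43.0% of all its features. The log2 fold changes in the authors' deposited table were -1.90 for Gasp, -1.51 for obst-B, -1.39 for serp, -0.63 for verm, -0.41 for Cda5 and 1.01 for obst-A. In the authors' deposited table rtv (-0.14), knk (0.11), Cda4 (0.03) and Cda9 (1.08) had false discovery rates of 0.0703, 0.168, 0.694 and 0.0889. The spo gene stood at -0.82 in the authors' deposited table, with a false discovery rate of 0.00261.

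The chitin that these proteins act on is made by a separate set of genes. Of 9 tested genes of chitin synthesis and export, 4 rose and 4 fell (median log2 difference -0.08), where 33.9% of all tested features rose and 27.9% fell (median 0.02). kkv, the chitin synthase of epidermis and trachea, stood at 23.5 ± 2.66 TPM in spo mutant and 51.8 ± 1.47 TPM in wild-type embryos (SD, n = 3 each, log2 difference -1.12, limma adjusted p = 2.03e-05). exp and reb encode related proteins that act with Kkv in chitin deposition. exp fell to 8.54 ± 0.81 TPM in spo mutant, against 17.2 ± 0.09 TPM in wild-type embryos, and reb rose by 0.52 on the log2 scale (limma adjusted p = 2.65e-05 for exp and 2.73e-04 for reb). In the precursor pathway, Gfat1 averaged 48.9 ± 2.11 TPM in spo mutant and 26.9 ± 0.26 TPM in wild-type embryos, and Gnpnat averaged 153 ± 2.28 TPM in spo mutant and 133 ± 2.28 TPM in wild-type embryos (limma adjusted p = 4.56e-06 and 1.78e-04). Smaller log2 differences in the same list were -0.11 for mmy, -0.08 for Gfat2 and 0.06 for nst (limma adjusted p = 0.00465, 0.0257 and 0.0489).

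Among 13 tested chitinases and related glycosidases, 4 rose and 7 fell (median -0.10), against the same 33.9% and 27.9% of all tested features. Cht10, a large chitinase, fell to 64.8 ± 2.54 TPM in spo mutant, against 101 ± 0.34 TPM in wild-type embryos. Idgf6 and Idgf3 belong to a chitinase-like family of secreted proteins without known chitinase activity. Idgf6 stood at 153 ± 3.49 TPM in spo mutant and 81.3 ± 0.70 TPM in wild-type embryos, while Idgf3 stood at 13.8 ± 0.18 TPM in spo mutant and 20.7 ± 0.34 TPM in wild-type embryos. The hexosaminidase gene Hexo2 averaged 32.4 ± 4.01 TPM in spo mutant and 12.9 ± 0.11 TPM in wild-type embryos (SD, n = 3 each, limma adjusted p at most 2.02e-05 for these 4 genes). Of 6 matched further chitin-binding genes only 2 were tested, and 1 rose and 1 fell. Peritrophin-A, the next gene downstream of obst-A with 1437 bases between them, rose to 13.5 ± 1.12 TPM in spo mutant, against 9.73 ± 0.51 TPM in wild-type embryos (log2 difference 0.44, limma adjusted p = 0.00121), and obst-H fell to 0.420 ± 0.154 TPM in spo mutant, against 1.72 ± 0.31 TPM in wild-type embryos. obst-H passed the filter on low values through the wild-type libraries alone. With its spo mutant values under 1 TPM, only higher wild-type values could bring it into the test.

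Septate junctions, the occluding junctions of fly epithelia, are known to be needed for the release of Serp and Verm into the tracheal lumen. Of 11 tested septate junction genes 6 fell by small amounts, none rose and 5 did not pass (median -0.08). Of all tested features, 27.9% fell and 33.9% rose. The share that fell was thus above that of all tested features, while the share called in either direction was near their 61.7%. The split of all tested features depends on the scaling. It was 3393 higher and 2792 lower in the main fit, against 3092 and 3108 with median-of-ratios scaling. The septate junction genes were not counted again with that scaling. The 4 with the smallest p were vari at -0.25, Nrx-IV at -0.18, kune at -0.17 and Gli at -0.12 (limma adjusted p from 8.85e-05 to 0.00190). These compare with -1.37 for serp and -0.61 for verm on the same log2 scale. The trachea markers did not move as one. rib, which encodes a tracheal and salivary gland transcription factor, fell to 355 ± 38.1 TPM in spo mutant, against 636 ± 3.31 TPM in wild-type embryos. trh, which sets tracheal fate, fell to 51.8 ± 0.57 TPM in spo mutant, against 61.1 ± 0.23 TPM in wild-type embryos, and dys, esg and knrl fell as well. btl, the receptor for tracheal branching signals, rose to 64.4 ± 8.04 TPM in spo mutant, against 47.4 ± 0.98 TPM in wild-type embryos (log2 difference 0.43, limma adjusted p = 0.00356), while stumps (0.12), vvl (-0.10) and kni (-0.04) did not pass. The part of these markers, or of the neuron and muscle markers, in the differences of serp, verm and Gasp was not tested.

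**Figure D5:**
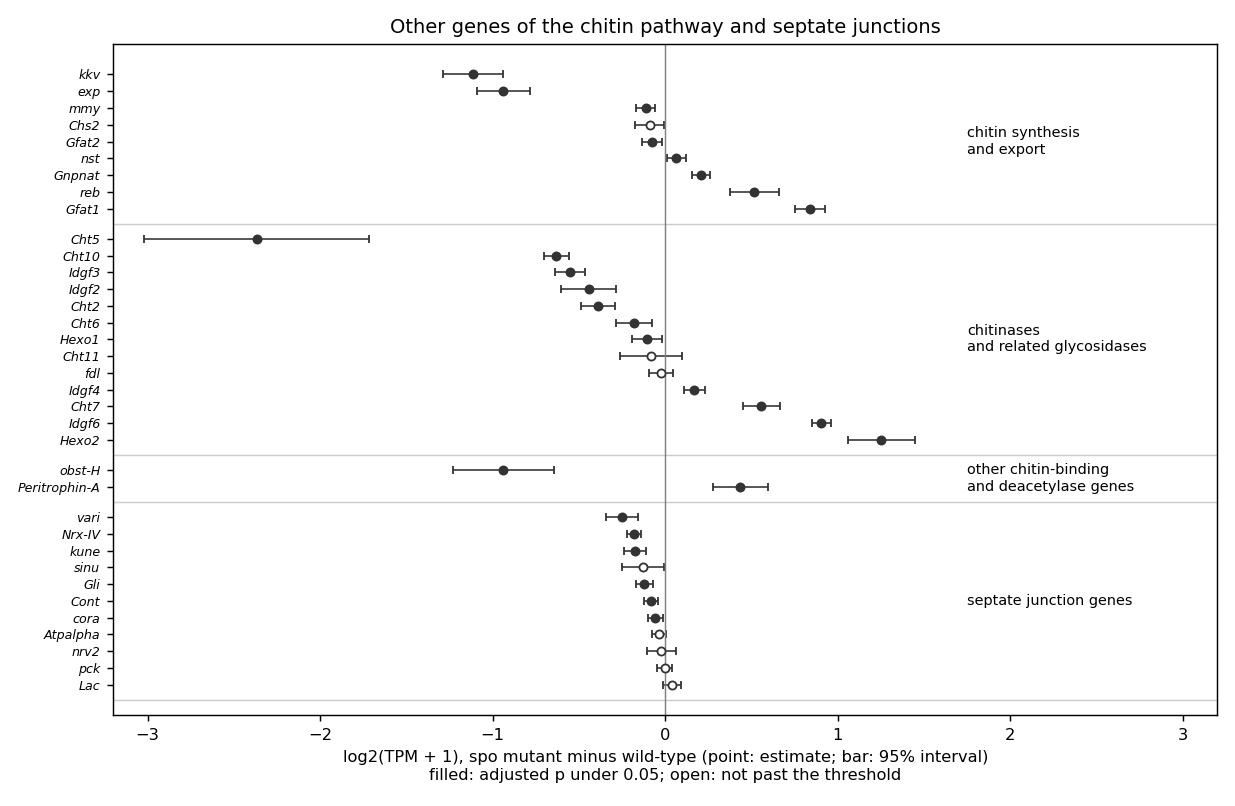
Log2 difference between spo mutant and wild-type embryos for the tested genes of the 4 other lists, with 95% intervals, filled where the limma adjusted p is under 0.05. The chitin synthesis and chitinase lists spread to both sides of 0, and the septate junction genes lie between -0.25 and 0.04.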

How the data were processed

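Whole-embryo polyA RNA was measured in 3 spo mutant and 3 wild-type libraries, grouped by the labels' titles. Per the file headers, the authors deposited TPM per gene and library. Another deposited table gives, per feature, the log2 fold change and mean log2 CPM of the authors, a likelihood ratio score, and a p-value with its false discovery rate. Named in the submitters' processing notes are the dm6 build, edgeR, Subread, featureCounts, STAR 2.5.3a and FastQC 0.11.2. No source used here states the annotation release or the strand setting. TPM values share one fixed sum, and a transcript's value can therefore fall because others increase.

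log2(TPM + 1), a scale that understates changes of low genes, was fitted against genotype by limma 3.58.1 (R 4.3.3, intensity trend), over the 10019 features that reached 1 TPM in 3 or more libraries. P-values were adjusted by Benjamini-Hochberg over all of these, with a threshold of 0.05. The spo gene and Cda9 were fitted with all 15135 features. Reads were rebuilt from TPM and exon length and came out whole for all features, 14161 of them with the annotated length. The tolerance was 0.0001 reads, widened in proportion to the count for features with many reads. For the other 974 the shortest fitting length was taken, so that totals may be slightly low. Ratios used exact permutation tests in scipy 1.17.1, and 4 ratios were compared (Benjamini-Hochberg adjusted p = 0.10 for each).

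The genes and lists were chosen with earlier results of these data known. The text names all 10 genes, up to 4 called genes per chitin or septate junction list by smallest p, the 3 features nearest in profile to serp, verm, Gasp and obst-A, and spo. For the tissue markers this rule was not kept. Not every marker that it picks is named, and the maternal transcripts are given only as a sum. reb, mmy, Gfat2, nst, genes beside or overlapping the 10 and the lower-ranked markers were added after their values were seen. Lists were matched to features by symbol or by the current FlyBase symbol of an older name. For chitin synthesis and export, chitinases, other chitin-binding genes and septate junctions, 9 of 9, 18 of 20, 6 of 10 and 11 of 11 were matched. Cht3 and Cht10 led to the same feature, which was counted once. Cda3 was not found by symbol, and the feature ChLD3, which the sources did not pair with it, was not used. The alternatives were a filter of 5 TPM, no filter, a pseudocount of 0.1, median-of-ratios and upper-quartile scaling, the replicate number as a block, a test against a log2 change of 0.5 and leaving out each library. voom on rebuilt reads was added after the data were seen, in place of a planned count test that was not run. Promoter sequences were not used here.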

Additional observations from a re-analysis of the deposited data

How the results depend on the processing

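serp, verm, Gasp, obst-B and obst-A kept their direction and their call in all 14 refits, and Cda5 in 13, failing against a log2 change of 0.5. Lower genes numbered 4 to 6 over the refits. Higher genes numbered 1, and 1 to 3 when 1 library was left out, with 3 only without spo mutant replicate 2. knk and Cda4 were each called in that 1 refit alone. rtv passed in 4 refits, with median-of-ratios scaling, upper-quartile scaling (-0.12, limma adjusted p = 0.0470), voom (-0.15, 0.0344) and without wild-type replicate 2 (-0.15, 0.0219). The cause of these changes was not tested. Against a log2 change of 0.5, 870 features were called in place of 6185. The spo gene lost its call with a pseudocount of 0.1 (-0.69, adjusted p = 0.0668), against a log2 change of 0.5 (-0.29) and in 5 of 6 fits without 1 library (-0.33 to -0.21), and kept it without spo mutant replicate 1 (-0.37) and with voom (-0.87, adjusted p = 0.0186). The 4 ratios kept their direction in all 7 refits each.

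With the replicate number as a block, 6086 features were called, among them the same 5 lower genes and obst-A. The correlation of deviations between libraries with the same number was -0.0275, 0.0450 and 0.129, too low to treat them as pairs. Depth limits Cda9 (3 to 12 reads per library) and spo (24 to 59).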

Other observations

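Among 7263 features with a mean of at least 10 TPM, those nearest to serp in their 6 values relative to the wild-type mean were Cpr11A, a cuticle protein gene, at 13.9 TPM in spo mutant and 36.0 TPM in wild-type embryos, CG17211, and Sans at 18.9 TPM in spo mutant and 46.7 TPM in wild-type embryos. Their Euclidean distances on the log2 scale were 0.0583, 0.132 and 0.149. Nearest to verm were CG2852 (0.0463), Prx4, listed as Jafrac2 (0.0584), and qua (0.0596). Nearest to Gasp were CG9698, cysu (listed as CG5873) and CG31559, at distances of 0.213 to 0.282. Nearest to obst-A were MCU (listed as CG18769), Pms2 and the germ line gene mael, the last at 40.2 TPM in spo mutant and 20.2 TPM in wild-type embryos, at distances of 0.0710 to 0.107. These distances rest on 6 libraries in 2 genotypes, and genes with a like difference between genotypes come out near each other.

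Cht5, a chitinase gene named here after its values were seen, stood at 4.92, 11.8 and 5.05 TPM in spo mutant replicates 1, 2 and 3, against 38.8 ± 0.79 TPM in wild-type embryos (SD, n = 3). Replicate 2 again lay nearest to wild-type. Its log2 difference of -2.37 (limma adjusted p = 2.72e-04) was larger than that of Gasp.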
